A study of Mus musculus with 24 samples.

Results

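The retinoic acid pathway and its target genes were followed as 33 genes in mouse embryonic stem (ES) cells, out of 55487 gene rows in each count table. The members were chosen by function, with earlier results of these data known. They were 6 receptors, 4 genes of transport and uptake, 7 of synthesis, 2 of breakdown, 9 Hox and other homeobox targets, and 5 other targets. Each was found in all 24 tables by its Ensembl identifier, matched to its symbol in GENCODE M21. The cells were of KH2, a mouse ES line built to carry doxycycline-inducible transgenes. All 24 libraries, controls included, came from cells with a doxycycline-controlled DUX transgene (TRE_DUX), and cells were compared without doxycycline (DOX) or after 16 h of it. There were 12 groups of 2 libraries. WT and DUXBL-KO cells form the plain set of 8 libraries. The pLV2 set of 16 libraries holds 2 WT lines, called WT pLV2 line 1 and line 2 after their titles, and cells labelled TRIM24-KO and TRIM33-KO. What pLV2 is, whether each line is 1 clone, and which WT line was the control of which knockout are not given in the sources used here, so the reference for each TRIM line was the mean of both WT lines, and each WT line was also used alone. Cells were grown in medium with serum and LIF, on gelatin or on arrested fibroblast feeders, per the labels' protocols. The labels do not say that replicates were separate cultures, so every p-value measures only the spread between these libraries, which may be technical.

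Retinol enters a cell with the help of the carrier RBP4 and the membrane receptor STRA6, and is oxidised first by retinol dehydrogenases such as RDH10 and then by aldehyde dehydrogenases of the ALDH1A family to retinoic acid. Inside the cell CRABP1 and CRABP2 bind retinoic acid, CYP26 enzymes break it down, and pairs of a retinoic acid receptor (RAR) and a retinoid X receptor (RXR) switch genes that hold retinoic acid response elements. In ES cells retinoic acid drives exit from self-renewal and turns on Rarb, Cyp26a1, Stra8, Cdx1 and the 3′ Hox genes. TRIM24 is a cofactor that binds retinoic acid receptors, and TRIM33 is its close relative.

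Between 11784696 and 19136869 reads were counted on genes per library, and all 12 pluripotency markers were detected in every group. Dux was at 0 to 2 counts in the libraries titled as without DOX and at 20 to 110 in those titled as with DOX. The targeted genes gave an uneven check of the labels. Trim33 was at 20.3 and 21.4 CPM (gene counts scaled by library size) in the TRIM33-KO libraries without DOX, against 115 to 140 in both WT pLV2 lines. Trim24 in the libraries labelled TRIM24-KO lay between the WT lines: without DOX they held 137 and 123 CPM, line 1 held 100.2 and 94.5, and line 2 held 196 and 165. By edgeR's quasi-likelihood test with adjustment over all genes they were higher than line 1 by 0.42 on the log2 scale (adjusted p = 0.00279) and lower than line 2 (-0.47, adjusted p = 4.78e-04), and the difference from the mean of both did not pass (-0.03, 0.825). Duxbl1 was at 16 and 6 counts without DOX in the libraries labelled DUXBL-KO and at 24 and 6 in WT, a difference that did not pass (adjusted p = 0.841). RNA counts do not show whether the protein is lost, so these libraries are called labelled TRIM24-KO and labelled DUXBL-KO throughout.

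A pair of members, the receptor gene Rarb and the breakdown gene Cyp26a1, held the classical retinoic acid response element within the window from 250 bases before to 50 bases after the RefSeq start. They are shown because both are textbook direct targets of the receptors and both were almost silent here. Each sequence is read 5′ to 3′ on the gene's strand (RefSeq, GRCm38.p6), and capitals mark the direct repeat with a spacer of 5 bases.
Rarb: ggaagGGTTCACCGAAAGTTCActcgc
Cyp26a1: aaagaTGAACTTTGGGTGAACTaattt
The Rarb stretch is chr14:16575508-16575534 on the minus strand, with the repeat at -53 to -37 from the RefSeq start and within the 5′ UTR of Rarb transcripts that GENCODE M21 starts further upstream. The Cyp26a1 stretch is chr19:37697771-37697797 on the plus strand, with the repeat at -32 to -16, on the strand opposite to the gene and upstream of any annotated exon. The search used the consensus hexamer AGGTCA of nuclear receptors, its common variant AGTTCA of retinoid elements, and the related forms GGGTCA for the first of these and GGTTCA for the second, in tandem on both strands, with a spacer of 5, 2 or 1 bases. RefSeq windows were matched for 27 of the 33 members (44 windows). Spaced by 5, the repeat was in 32 of all 32851 windows (0.0974%), these members' included. Spaced by 2 it was in 0.268% of all windows and spaced by 1 in 0.222%, with no member among them. A DUX-type motif, TGATT followed after 1 base by its reverse complement, was in 0.0335% of all windows and in no member's. A match in these windows is a description of sequence only.

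Before induction 2 retinoid receptor genes, Rarg and Rara, had the highest median levels of the members. Per kilobase of gene (RPKM, which is CPM per kilobase), Rarg ran from 13.3 to 51.5 over the 12 libraries without DOX, with a median of 24.7. Rara had a median of 15 RPKM, Rxrb 8.26 and Rxra 3.41, while Rxrg, at 0.534, was the lowest of the tested receptors. The ranges of Rarg and Rara overlapped, and the range of Rxrb (6.28 to 10.8) lay wholly below that of Rara (12.3 to 19.9). Crabp1, the cytosolic retinoic acid binder, ranged from 2.02 to 34.9 RPKM. Its group mean lay above both receptors in line 2 (29, against 19.3 for Rara and 14.8 for Rarg). It did so too in TRIM33-KO (34.4, against 19.2 and 16.9). In WT it lay above Rara alone (17.7 against 16.9). The reductases and dehydrogenases Dhrs4 (median 10.1 RPKM) and Rdh11 (9.07) stood far above the enzymes that make retinoic acid in embryos, Rdh10 (0.755) and Aldh1a2 (0.675). Of the targets, Tgm2, encoding tissue transglutaminase, had a median of 2.86 RPKM and Cdx1, a caudal homeobox gene, 2.67. The plot of levels per kilobase shows this order within each role.

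**Figure D1:**
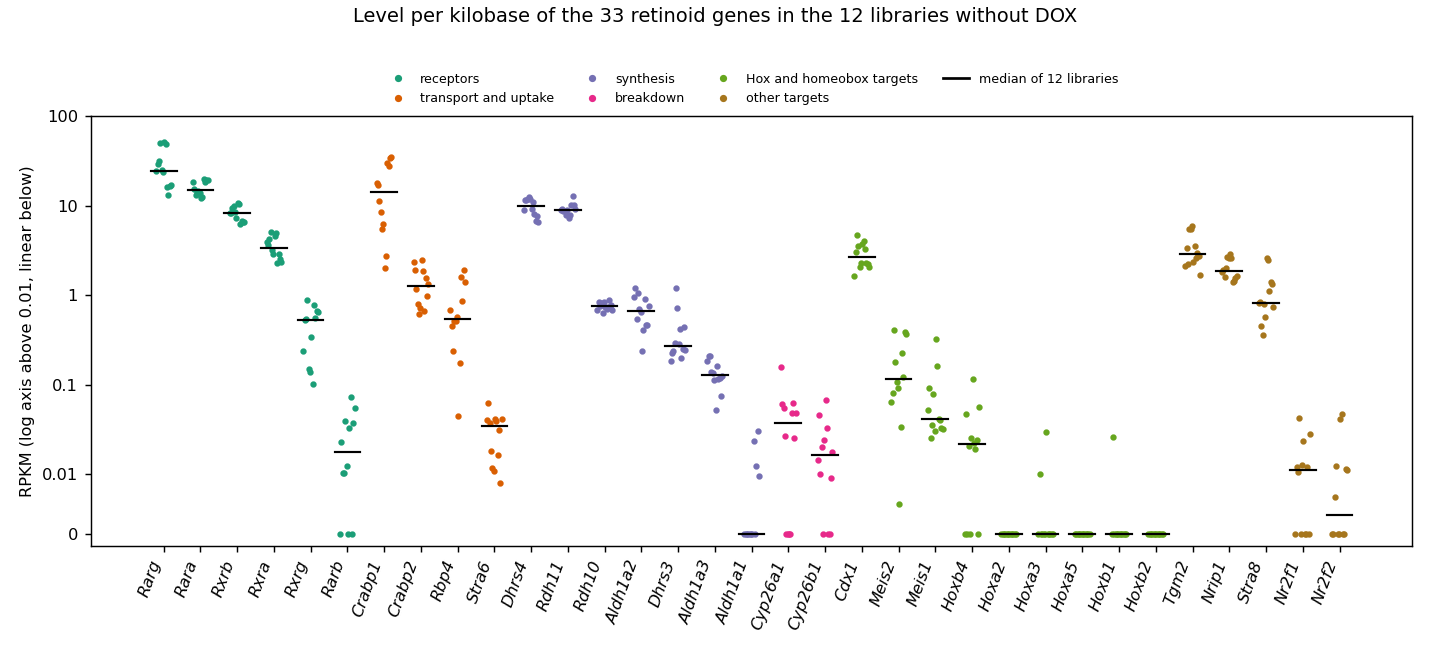
Level per kilobase (RPKM, log axis above 0.01 and linear below) of the 33 members in the 12 libraries without DOX, coloured by role, with the median as a bar. The receptors Rarg and Rara have the highest medians, 24.7 and 15, though the group mean of Crabp1 is above both in line 2 and TRIM33-KO. The Hox genes lie at or near 0.

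Many of the genes that retinoic acid turns on, Rarb, Cyp26a1 and the Hox genes among them, were close to silent, while Cdx1, Stra8, Tgm2 and Nrip1 were detected well enough to be tested. Of the 33 members, 13 had too few reads to be tested in either set, and none of the 13 passed 8 counts in a library. A library that held 3 counts of a gene had 0.144 to 0.381 CPM, depending on its depth. Rarb totalled 56 counts over all 24 libraries, with 6 to 14 per line. Cyp26a1, which clears retinoic acid, totalled 28 counts and never passed 4 in a library. Cyp26b1, its paralog, totalled 40, and Stra6 totalled 47. The 6 Hox genes were lower still: Hoxa2 was at 0 in all 24 libraries, and Hoxa3, Hoxa5, Hoxb1 and Hoxb2 never passed 3 counts. Hoxb4 reached 5 counts, and the nuclear receptors Nr2f1 and Nr2f2 reached 4 and 7. At this depth a fall in most of these genes was not detectable, nor was a small rise. A large rise could be detected: Dux, at 0 to 2 counts without DOX and 20 to 110 with it, was called in every line by edgeR's test. The other 20 members passed the filter on low counts in both sets, and it is these that the counts below refer to.

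After 16 h of DOX a small and repeated set of members moved, the receptor gene Rxra among them. In WT pLV2 line 1 and in line 2, 4 members rose (Rxra, Rxrg, Aldh1a2 and Nrip1) and 1 fell (Rara), by edgeR's quasi-likelihood test with Benjamini-Hochberg adjustment over all genes. That was 5 of 20 in each line, where 16.3% of all genes tested were called in line 1 and 26.8% in line 2, so the share of members was near that of all genes. The line labelled TRIM24-KO had 6 of 20 (16.4% of all genes), with the same 5 genes and a rise of Rarg. TRIM33-KO had 8 of 20 (36.6% of all genes): the same 5, and falls of Rxrb, Meis2 and Tgm2. In the plain set the count was 0 of 20 in WT (2.93% of all genes) and 1 of 20, Rxra, in the line labelled DUXBL-KO (4.91%). In WT, 5 members had an unadjusted p under 0.05 in edgeR's test, namely Aldh1a2, Dhrs4, Rara, Rxra and Rxrg, and DESeq2 called 1. With the replicate number as a block, 2 were called in WT (Rxra and Rxrg, where 5.32% of all genes were) and 2 in the labelled DUXBL-KO line (Rxra and Dhrs4, 8.83%). The median log2 fold change of the 20 members with DOX lay between -0.12 and 0.06 in the 6 lines, and that of all genes between -0.09 and -0.00. In bulk RNA, more cells with a transcript cannot be told apart from more transcript per cell.

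Rxra, which encodes the RXR partner of many nuclear receptors, was higher with DOX in every line. In WT it had 21.8 and 19.9 CPM without DOX and 53.8 and 33.1 with it. In line 1 it went from 17.4 and 15.7 CPM to 63.9 and 71.3, and in line 2 from 12.6 and 15.9 to 98.8 and 109. In none of these 3 WT lines did the libraries with and without DOX overlap. The line labelled DUXBL-KO held 23.0 and 27.6 CPM without DOX and 73.0 and 66.8 with it. The line labelled TRIM24-KO held 25.4 and 27.3 CPM without DOX and 119 and 127 with it. TRIM33-KO held 13.9 and 12.8 CPM without DOX and 165 and 145 with it, the highest Rxra levels of the series. On the log2 scale Rxra rose by 2.03 ± 0.11 (SE) in line 1 (adjusted p = 2.66e-10), 2.88 ± 0.11 in line 2 (1.51e-12), 2.22 ± 0.10 in the labelled TRIM24-KO line (2.43e-11) and 3.54 ± 0.11 in TRIM33-KO (9.28e-14). In the labelled DUXBL-KO line it rose by 1.46 ± 0.22 (adjusted p = 0.0105), and without its replicate 1 without DOX or replicate 1 with DOX that call was lost (0.0771 and 0.0593). In WT the difference of 1.06 ± 0.23 did not pass (adjusted p = 0.0626), though it did with DESeq2 (7.51e-04) and without WT with DOX replicate 2 (0.00462).

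Levels of the 2-cell-like genes, which DUX is known to switch on, moved with Rxra. All 9 of the 9 tested rose with DOX in each of the 6 lines. Their summed level with DOX was 647 to 1607 CPM in WT, 1269 to 1588 in line 1, 1359 to 2021 in the labelled DUXBL-KO line, 1652 to 2493 in the labelled TRIM24-KO line, 3560 to 4645 in line 2 and 6285 to 6976 in TRIM33-KO. Without DOX the sums were 0.364 to 5.15 CPM, and at most 2 of the 9 genes were at 0 in both libraries of a line (Gm6763, Tcstv1, Tdpoz4 or Zfp352). With DOX none was. By the group mean of this sum and by the log2 change of Rxra given above, WT was lowest, TRIM33-KO highest and line 2 next to it. Line 1 and the labelled DUXBL-KO line stood in opposite order. By the sum, however, the higher WT library (1607 CPM) lay above both of line 1 (up to 1588). Pluripotency markers moved too. Of 12 tested, DOX raised 1 and lowered 3 in line 1, and raised 1 and lowered 8 in line 2 and in TRIM33-KO. It lowered 6 in the labelled TRIM24-KO line, and 0 were called in the plain set. Of all genes, 16.3% were called in line 1, 26.8% in line 2, 16.4% in the labelled TRIM24-KO line and 36.6% in TRIM33-KO. In the plain set the shares were 2.93% in WT and 4.91% in the labelled DUXBL-KO line. The part of these marker changes in that of Rxra was not tested.

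Rara, the widely expressed RAR, fell with DOX in all 4 pLV2 lines. It went from 63.9 and 60.7 CPM to 41.1 and 37.5 in line 1, and from 86.8 and 81.4 to 52.5 and 48.6 in line 2. The labelled TRIM24-KO line went from 53.7 and 54.0 CPM to 35.0 and 32.2, and TRIM33-KO from 83.6 in each library to 32.2 and 41.3. Within each line the libraries with DOX all lay below those without. The fall on the log2 scale was -0.66 ± 0.09 in line 1 (adjusted p = 5.11e-05), -0.74 ± 0.09 in line 2 (6.86e-06), -0.67 ± 0.10 in the labelled TRIM24-KO line (6.14e-05) and -1.19 ± 0.09 in TRIM33-KO (2.02e-08). In WT the value was -0.33 (adjusted p = 0.293) and in the labelled DUXBL-KO line -0.38 (0.148), both below the threshold of the test. A small gene of GENCODE M21, Gm22061, overlaps Rara on its strand.

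Rxrg, the RXR with the most restricted expression, and Aldh1a2, the main embryonic retinoic acid synthase, were low genes that rose. Aldh1a2 had 1.58 and 1.48 CPM in line 1 without DOX and 4.8 and 3.71 with it, and 2.04 and 1.04 in line 2 against 3.82 and 3.13. In the labelled TRIM24-KO line it went from 0.541 and 0.928 CPM to 3.56 and 4.96, and in TRIM33-KO from 1.04 and 1.73 to 5.42 and 4.88. No library with DOX overlapped one without in these 4 lines. The log2 changes of Aldh1a2 were 1.47 ± 0.33 (adjusted p = 0.00474), 1.14 ± 0.32 (0.0152), 2.49 ± 0.38 (1.16e-04) and 1.89 ± 0.32 (1.93e-04), in that order. In the plain set Aldh1a2 was 0.95 higher in WT (0.336) and 0.68 higher in the labelled DUXBL-KO line (0.471), without passing. Rxrg changed by 1.80 ± 0.57 in line 1 (0.0396), 1.17 ± 0.35 in line 2 (0.0204), 2.33 ± 0.47 in the labelled TRIM24-KO line (0.00178) and 1.62 ± 0.35 in TRIM33-KO (0.00152). Its levels stayed low, from 0.343 and 0.322 CPM to 1.07 and 1.29 in line 1. In the labelled TRIM24-KO line the Rxrg change was 3.41 without its replicate 1 without DOX and 1.67 without its replicate 2 without DOX, both called. Omitting any library of line 1 lost the Rxrg call there (adjusted p 0.0881 to 0.189). Omitting line 2 without DOX replicate 2 or with DOX replicate 1 lost both genes' calls in line 2, where the adjusted p of Aldh1a2 reached 0.116 and that of Rxrg 0.391. Over the 4 fits that omitted a library of line 2 the change ran from 0.80 to 1.75 for Aldh1a2 and from 0.56 to 1.60 for Rxrg. Omitting line 1 with DOX replicate 1 lost that of Aldh1a2 in line 1 (0.0564). Gm48124 overlaps Aldh1a2 on the opposite strand, and the use of strand in counting is not given in the sources used here.

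Nrip1, a corepressor that ligand-bound receptors recruit and itself a retinoic acid target, rose slightly in the 4 pLV2 lines. Its libraries went from 31.0 and 30.2 CPM to 37.4 and 38.8 in line 1, and from 16.3 and 16.4 to 19.5 and 19.6 in line 2. They went from 32.8 and 29.7 to 47.5 and 48.2 in the labelled TRIM24-KO line and from 18.1 and 19.0 to 28.8 and 27.5 in TRIM33-KO, with no overlap in any line. The log2 change was 0.32 ± 0.08 in line 1 (adjusted p = 0.0134), 0.26 ± 0.09 in line 2 (0.0419), 0.61 ± 0.08 in the labelled TRIM24-KO line (3.14e-05) and 0.60 ± 0.09 in TRIM33-KO (4.41e-05). The call in line 2 was lost when any of its 4 libraries was omitted, and that in line 1 when any but its replicate 1 without DOX was (adjusted p up to 0.142 and 0.118). The plot of levels in all libraries shows Rxra, Rara, Aldh1a2 and Nrip1 side by side.

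**Figure D2:**
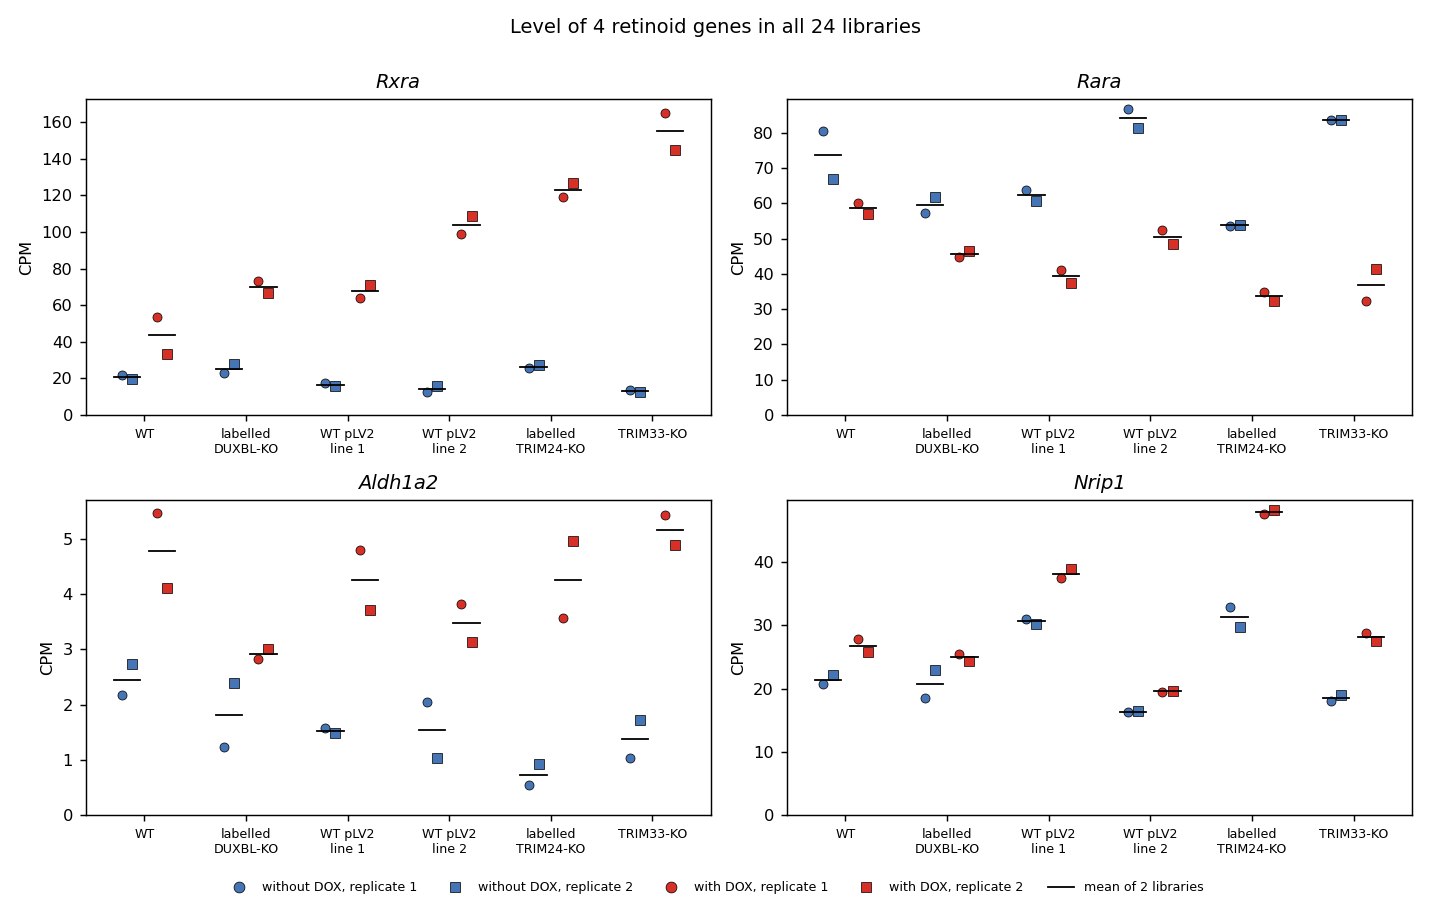
Level in CPM (linear axes from 0) of Rxra, Rara, Aldh1a2 and Nrip1 in the 24 libraries, blue without and red with DOX, with the mean of 2 libraries as a bar. Rxra is highest in TRIM33-KO with DOX, at 165 and 145 CPM, and Rara is lower with DOX in every pLV2 line.

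Of the remaining receptors, Rarg, another RAR gene, rose with DOX in the labelled TRIM24-KO line, by 0.41 ± 0.08 (adjusted p = 0.00158). Its libraries went from 219.6 and 208 CPM to 296 and 273 there, while in line 1 they were at 106 and 102 without DOX and 93.5 and 96.8 with it. In TRIM33-KO, Rxrb fell by 0.36 ± 0.10 on the log2 scale (adjusted p = 0.0104), from 26.1 and 26.3 CPM to 21.5 and 19.2. The homeobox gene Meis2, a TALE cofactor of Hox proteins, fell there by 1.09 ± 0.40 (0.0425), from 4.62 and 4.42 CPM to 1.69 and 2.6. Tgm2 fell by 0.91 ± 0.25 (0.00872), from 12.7 and 7.73 CPM to 5.87 and 4.88, without overlap. Without TRIM33-KO replicate 1 without DOX the Tgm2 value was -0.50 (0.143), and without replicate 2 without DOX it was -1.21. Omitting any TRIM33-KO library lost the Meis2 call (adjusted p up to 0.288), and omitting TRIM33-KO with DOX replicate 2 lost those of Rxrb and Tgm2 as well, which left 5 of 20. Rxrb was also lost without replicate 2 without DOX. Tgm2 overlaps Rprd1b on the opposite strand. None of the 3 tested transport genes passed the test with DOX in any line.

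The libraries labelled TRIM24-KO differed from the WT mean in 14 of 20 members without DOX, 8 higher and 6 lower, where 43.4% of all genes tested were called. The median log2 difference of the 20 was -0.12, against -0.02 for all genes. With an absolute log2 fold change of at least 1 as well, 8 of 20 passed, 4 higher and 4 lower, against 12.6% of all genes. With DOX the count was 12 of 20, 7 higher and 5 lower, against 40.8% of all genes, and the median was 0.16 against 0.00. The WT pLV2 lines differed from each other in 12 of 20 members without DOX (38.3% of all genes) and 12 of 20 with it (40.1%). By the stricter rule with the fold, 5 of 20 differed between the WT lines without DOX (9.65% of all genes). Counts for the labelled TRIM24-KO line, and the differences without DOX of most members named below, are therefore given against each WT line too. Against line 1 alone 12 members were called without DOX (34% of all genes) and against line 2 alone 15 (48.1%). In the same direction against both, 9 were called, where 21.7% of all genes were: Rarg, Rxra, Rxrb, Crabp2, Meis1 and Stra8 higher, and Crabp1, Meis2 and Rbp4 lower. The 2 comparisons share the labelled TRIM24-KO libraries. With DOX, 11 were called against line 1 (32.2% of all genes), 11 against line 2 (46.8%) and 8 against both in the same direction (20%), with Nrip1 in place of Rxrb among the higher and without Meis2 among the lower.

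Among the receptors, Rarg stood out in the labelled TRIM24-KO line. It held 219.6 and 208 CPM without DOX, where line 1 held 106 and 102, line 2 held 69.4 and 56.6 and TRIM33-KO held 71.1 and 72.9. All libraries labelled TRIM24-KO lay above all 12 others of the pLV2 set. In the plain set, however, which was scaled apart, Rarg reached 135 and 217 CPM in the labelled DUXBL-KO line without DOX. From the mean of both WT lines it differed by 1.40 ± 0.07 on the log2 scale in untreated cells (adjusted p = 1.33e-10) and by 1.94 ± 0.07 in treated ones (3.41e-12). Set against each WT line separately, the untreated cells differed by 1.04 (line 1) and 1.76 (line 2). Rxra was higher by 0.78 ± 0.10 (4.75e-06) without DOX and Rxrb by 0.57 ± 0.08 (2.06e-05), while Rara was lower by -0.43 ± 0.08 (2.56e-04). Against line 1 and line 2 in turn, Rxra differed by 0.67 and 0.90 and Rxrb by 0.42 and 0.71, all called. Rara differed by -0.21 from line 1, which did not pass (0.0775), and by -0.64 from line 2, which did. Rxrb held 42.8 and 41.8 CPM against 33.9 and 29.3 in line 1 and 25.0 and 26.8 in line 2. Rara was lower than in both WT lines in each library, at 53.7 and 54.0 CPM against 60.7 to 86.8.

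The transport genes went in opposite directions. Crabp1 was at 1.62 and 2.2 CPM in the labelled TRIM24-KO line without DOX, at 4.39 and 5.02 in line 1 and at 24.1 and 22.4 in line 2. The log2 difference was -2.44 ± 0.15 from the mean of both WT lines (adjusted p = 1.54e-09), but -1.29 from line 1 and -3.60 from line 2. With DOX it was -2.32 ± 0.16 (9.01e-09). Crabp2, which hands retinoic acid to RARs, was higher, at 3.3 and 2.49 CPM against 0.823 and 0.965 in line 1 and 0.872 and 2.08 in line 2, a log2 difference of 1.35 ± 0.30 (0.00181), or 1.68 from line 1 and 1.01 from line 2. With DOX the Crabp2 difference was 1.79 ± 0.36 (8.63e-04). In the plain set, which was scaled apart, Crabp2 held 3.1 and 2.55 CPM in WT without DOX, within the range of the labelled TRIM24-KO line. Rbp4, the plasma carrier of retinol, was at 0.0601 and 0.232 CPM (1 and 4 counts) against 0.686 and 0.772 in line 1 and 2.18 and 1.16 in line 2, a difference of -2.85 ± 0.59 (8.61e-04) without DOX. From line 1 it was -2.24 and from line 2 it was -3.46, both called. The value from the mean was -2.23 without labelled TRIM24-KO replicate 1, and without its replicate 2 the call held on 1 count, so no fold is given. With DOX it had 1 and 0 counts there and was also called lower, with no fold given because the group is at the floor of 3 counts.

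Among synthesis genes, Aldh1a2 was lower in the labelled TRIM24-KO line without DOX by -1.06 ± 0.36 (adjusted p = 0.0247), at 0.541 and 0.928 CPM against 1.04 to 2.04 in the WT lines. Omitting 1 of 4 libraries lost this call (line 1 replicate 1 or 2, line 2 replicate 1, or labelled TRIM24-KO replicate 1), with an adjusted p up to 0.235. From line 1 the difference was -1.04, which did not pass (0.0626), and from line 2 it was -1.09 (0.0337). Rdh11, a retinal reductase, was lower by -0.36 (0.0107) with overlapping libraries, and its call was lost without line 1 replicate 2, line 2 replicate 2 or either labelled TRIM24-KO library (up to 0.111). It was -0.14 from line 1 (0.398) and -0.58 from line 2 (6.95e-04). With DOX no synthesis gene differed by the test. Dhrs3, which turns retinal back to retinol, stood apart in line 1 instead, with 3.57 and 2.12 CPM without DOX against 0.582 and 0.735 in line 2 and 0.841 and 1.22 in the labelled TRIM24-KO line.

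All 3 tested homeobox targets differed in the labelled TRIM24-KO line without DOX, and not in 1 direction. Meis1, a TALE homeobox gene, had 3.42 and 1.68 CPM against 0.823 and 0.322 in line 1 and 0.436 and 0.429 in line 2, a log2 difference of 2.34 ± 0.37 (adjusted p = 8.24e-05), with 2.15 from line 1 and 2.53 from line 2. It ran from 1.75 to 2.82 over the 6 fits that omitted a library, all called. With DOX the difference was 1.42 ± 0.39 (0.00737), with an adjusted p of 0.0531 without the labelled TRIM24-KO library with DOX replicate 2. Its paralog Meis2 was lower, at 0.0601 and 0.406 CPM against 1.3 and 1.09 in line 1 and 2.71 and 1.47 in line 2, a difference of -2.72 ± 0.57 (9.76e-04). From line 1 it was -2.30 and from line 2 it was -3.13, both called. Without labelled TRIM24-KO replicate 1 the value from the mean was -1.95, and without replicate 2 the call held on 1 count, so no fold is given. With DOX the Meis2 difference was -1.97 ± 0.73 (0.0402), lost without any of 3 libraries, replicate 1 of line 1, of line 2 or of the labelled TRIM24-KO line. Without the last of these it was -1.0 (0.419), and without replicate 2 of the labelled line that group holds 1 count, so no fold is given. Cdx1 was higher by 0.65 ± 0.22 (0.0221) without DOX, and that call was lost without either labelled TRIM24-KO library (up to 0.0951). Cdx1 differed by 0.84 from line 1 (0.0205) and by 0.46 from line 2, which did not pass (0.137). In the GENCODE annotation 5 genes overlap Meis1.

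Of the other targets, Stra8, the retinoic acid induced gate of meiosis in germ cells, was at 4.75 and 4.47 CPM in the labelled TRIM24-KO line without DOX. Line 1 held 1.44 and 1.03 CPM, line 2 held 2.04 and 2.51 and TRIM33-KO 2.43 and 1.34, so the labelled TRIM24-KO libraries lay above all of these. The log2 difference from the mean of both WT lines was 1.46 ± 0.24 without DOX (adjusted p = 1.03e-04) and 1.52 ± 0.26 with it (2.02e-04). Without DOX it was 1.90 from line 1 and 1.02 from line 2, both called. Nrip1 was 0.48 higher without DOX (3.74e-05), with libraries that overlapped those of line 1 (0.03 from line 1, 0.823, and 0.94 from line 2), and 0.81 ± 0.07 higher with DOX without overlap. Tgm2 was lower by -0.69 (0.0143) with DOX, in overlapping libraries, and the call was lost without labelled TRIM24-KO with DOX replicate 1 (0.172). From line 1 it was -1.32, and from line 2 it was -0.07 and did not pass (0.852). Among members too low to test, Nr2f2 had 6 and 7 counts without DOX and 5 and 3 with it in the labelled TRIM24-KO line, 0 to 2 in line 1 and 0 in all libraries of line 2. Cyp26b1 had 6 and 3 counts without DOX and 3 and 5 with it, and Hoxb4 had 5 and 1, then 4 and 4. Fitted by edgeR without a filter on low counts, against the mean of both WT lines, Nr2f2 was called without DOX (adjusted p = 6.36e-04) and with it (0.0411). Cyp26b1 was called without DOX (0.0394) and Hoxb4 with DOX (0.0164). Of all genes, 21.4% were called without DOX and 20.2% with it in that fit. Its adjusted p-values ran far lower, as for Rxra with DOX in the labelled TRIM24-KO line (7.41e-113 against 2.43e-11 with the filter). The plot of the pLV2 libraries shows 9 of these genes.

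**Figure D3:**
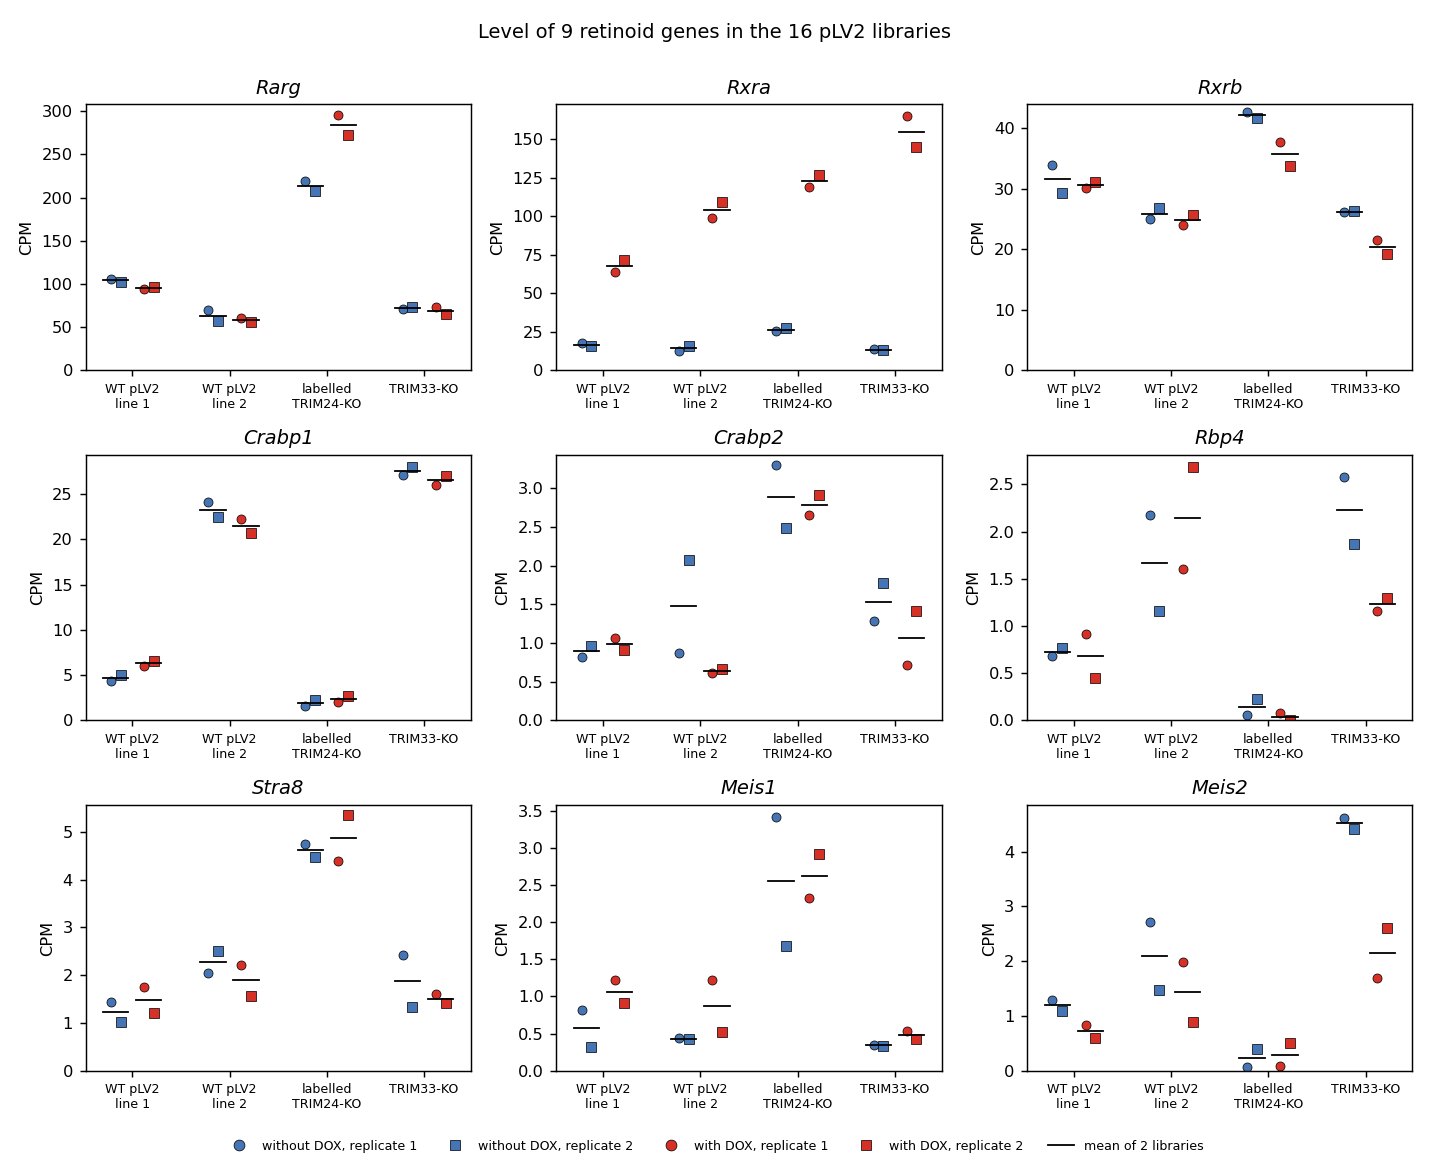
Level in CPM (linear axes from 0) of 9 members in the 16 pLV2 libraries, blue without and red with DOX, with the mean of 2 libraries as a bar. In the labelled TRIM24-KO line Rarg and Stra8 lie above all other libraries shown, and Crabp1 is at 1.62 to 2.67 CPM, below them all.

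Marker genes of other cell types also differed in the labelled TRIM24-KO line without DOX, taken against both WT lines' mean, where 43.4% of all genes were called. Of 9 tested extraembryonic endoderm markers 6 were higher and 1 lower. The summed level of that list was 162 to 178 CPM against 179 to 179.6 in line 1 and 149 to 188 in line 2, with Afp at 0. Of 7 tested trophoblast markers 5 were higher and 1 lower, with sums of 69.3 to 71.8 CPM against 69.8 to 71.6 and 86.7 to 87.6, and Tpbpa at 0. Of 12 pluripotency markers 3 were higher and 8 lower, with sums of 4547 to 4661 CPM against 5579 to 5660 and 4895 to 5109. Of 7 tested fibroblast markers 4 were lower, with sums of 52.6 to 74.6 CPM against 92.9 to 99.4 and 160.4 to 165, and Dcn, Postn and Twist2 at 0. In line 2, 6 of the 7 were higher than in line 1 (38.3% of all genes called), as were 6 of 7 in TRIM33-KO against the mean of both WT lines (23.9%, with sums of 165 to 168 CPM in TRIM33-KO). Of 3 tested neuroectoderm markers (10 listed) 1 was lower, Tubb3, and the summed level of the list was 36.7 to 38.1 CPM against 64.5 to 68.3 in line 1 and 87.9 to 108 in line 2. Of 5 tested primitive streak and mesoderm markers 1 was higher, Hand1, which is on the trophoblast list too. The sums were 11.1 to 12.4 CPM against 16.1 to 20.4 and 10.3 to 10.7. The part of any of these markers in the differences of the members was not tested.

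TRIM33-KO differed from the WT mean in 8 of 20 members without DOX, where 23.9% of all genes were called. Crabp1 was higher by 1.39 ± 0.10 (adjusted p = 7.26e-08) and Meis2 by 1.50 ± 0.32 (0.00276), while Tgm2 was lower by -0.86 ± 0.18 (0.00204). Without TRIM33-KO replicate 2 the Tgm2 value was -0.52 and its call was lost (0.0786), and without replicate 1 it was -1.23. Rxrg, Rbp4 and Rara were also higher than that mean, and Dhrs4 and Nrip1 lower, but against line 2 alone the sign turned for Rxrg (-0.04), Rara (-0.01) and Nrip1 (0.19). Crabp1 held 27.1 and 28.0 CPM in TRIM33-KO, close to the 24.1 and 22.4 of line 2 and far from the 4.39 and 5.02 of line 1. Against line 2 alone none of the 20 was called by edgeR's test (1.52% of all genes), though 4 had an unadjusted p under 0.05 (Crabp1, Meis2, Nrip1 and Rarg). Against line 1 alone 12 were called (40.9%). None was called in the same direction against both lines, where 0.918% of all genes were. The count also fell to 2 to 5 when 1 of 5 libraries was omitted (both of TRIM33-KO, both of line 1, or line 2 replicate 2). With DOX, 7 of 20 differed, where 26.8% of all genes were called, and Rxra was 0.89 ± 0.08 higher (9.53e-07). Then 10 members were called against line 1 alone (43.1% of all genes) and 3 against line 2 alone (3.57%). Rxra alone was called higher than both WT lines, by 0.58 against line 2 and by 1.20 against line 1, where 2.62% of all genes were called in the same direction against both. Nrip1 was lower than line 1 by -0.44 and higher than line 2 by 0.53, both called. Without TRIM33-KO with DOX replicate 1 the count of 7 was 4.

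Without DOX the 2 WT lines differed from each other by more than 2 on the log2 scale in 3 members, Crabp1, Rxrg and Dhrs3. In those cells, the Crabp1 level of line 2 exceeded that of line 1 by 2.30 ± 0.13 on the log2 scale (adjusted p = 2.50e-09), and Rxrg by 2.2 ± 0.52 (0.00285), from 0.343 and 0.322 CPM to 1.79 and 1.29. Dhrs3 was lower in line 2 by -2.11 ± 0.45 (0.00135) and Tgm2 by -1.06 ± 0.19 (3.67e-04), from 25.6 and 27.7 CPM to 12 and 13.7. Nrip1 was lower by -0.91 ± 0.09 (6.30e-07) and Rarg by -0.72 ± 0.09 (5.72e-06). For Crabp1, the 2 WT lines thus lay further apart than the labelled TRIM24-KO line lay from line 1. With DOX the differences were 1.77 for Crabp1, 1.57 for Rxrg and -1.71 for Dhrs3, all called. Omitting line 2 with DOX replicate 1 lost the Rxrg call (0.97, adjusted p = 0.108) and that of Dhrs3, which was also lost without line 1 with DOX replicate 2 (-1.0, 0.273). With DOX, omitting line 1 replicate 2 lowered the count of 12 to 7.

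In the plain set, the line labelled DUXBL-KO differed from WT in 0 of 20 members without DOX (0.0388% of all genes called) and 0 of 20 with DOX (0.072%), by edgeR's test. At an unadjusted p under 0.05 there were 6 members without DOX and 5 with it, and DESeq2 called none at its adjusted threshold in either. Crabp1 was at 8.99 and 6.84 CPM against 14.6 and 13.8 in WT without DOX, lower in each library, with a log2 difference of -0.84 ± 0.20 (adjusted p = 0.271). With DOX its libraries held 6.64 and 5.08 against 11.1 in each WT library, a difference of -0.92 ± 0.20 (0.228). Meis2 was at 4.9 and 2.14 CPM against 0.776 and 0.972, a difference of 1.99 ± 0.49 (0.293), and Crabp2 at 1.56 and 1.07 against 3.1 and 2.55, a difference of -1.10 ± 0.34 (0.432). With the replicate number as a block, Crabp1 (adjusted p = 0.0364), Meis2 (0.0431) and Rarg (0.039) were called without DOX, where 2.44% of all genes were, and Crabp1 with DOX (0.0303), where 2.69% were. The labels do not say that a replicate number marks a batch. A miss of the threshold here does not show that the lines were alike.

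Whether DOX acted differently in a line was tested as the DOX effect of that line minus that of its WT. For the labelled DUXBL-KO line 0 of 20 members passed, 0 had an unadjusted p under 0.05, and 0% of all genes were called, with 0 of 20 called by DESeq2 too. For the labelled TRIM24-KO line 1 of 20 passed, Rarg, where 0.437% of all genes did. The Rarg effect of DOX was larger there by 0.54 ± 0.10 on the log2 scale (adjusted p = 0.0258). Against each WT line alone the value was 0.55 and 0.54, but neither passed (0.0839 and 0.0664). The call was also lost with RLE in place of TMM scaling (0.0608), and without the gene row CT010467.1, which took 30.4% of gene counts in the labelled TRIM24-KO library with DOX replicate 2 (0.0637). Of the 12 fits that omitted a library it was lost in 8: any of the 4 labelled TRIM24-KO libraries, both of line 1 without DOX, line 1 with DOX replicate 1 and line 2 without DOX replicate 1 (up to 0.308). For TRIM33-KO 1 of 20 passed, Rxra, where 0.575% of all genes did. The Rxra effect was larger by 1.09 ± 0.13 (0.00151), by 1.51 against line 1 (1.01e-04) and by 0.67 against line 2, where it did not pass (0.5). Between the WT lines, a comparison added after the data were seen, 1 of 20 passed (0.238% of all genes), again Rxra, with a larger effect in line 2 by 0.85 ± 0.15 (0.0236). That call was lost in 5 of 8 fits that omitted a library: either of line 1 without DOX, line 1 with DOX replicate 1, line 2 without DOX replicate 1 or line 2 with DOX replicate 2 (up to 0.231). In the labelled TRIM24-KO line the Rxra effect differed from the mean of both WT lines by -0.23 (0.66). From line 1 alone it differed by 0.19 (0.881) and from line 2 alone by -0.66 (0.0667), and neither passed.

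**Figure D4:**
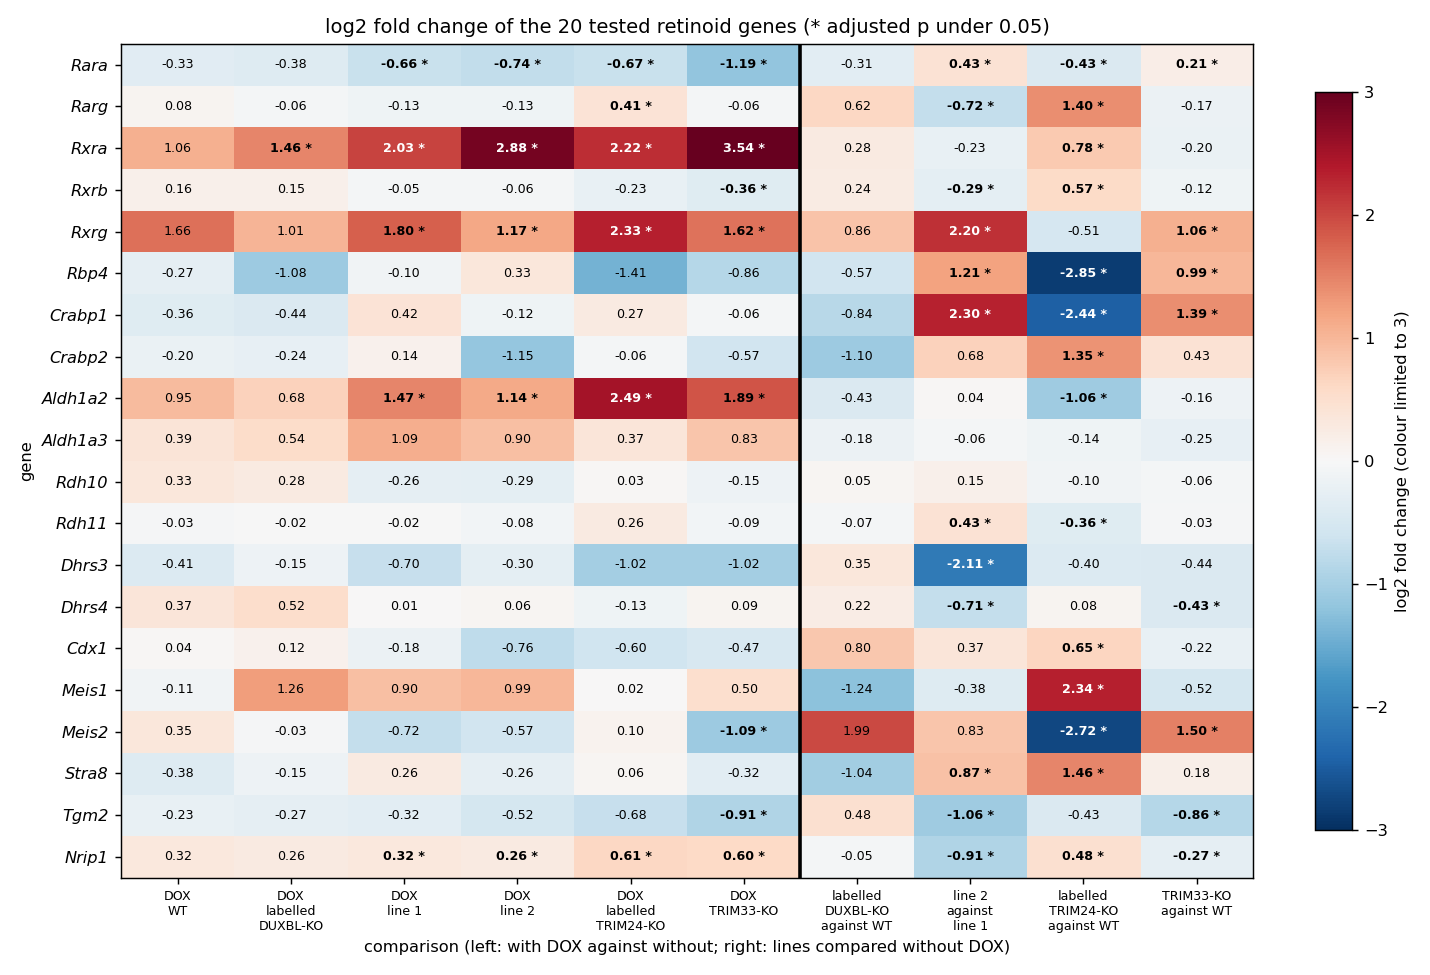
log2 fold change of the 20 tested members (rows) in 10 comparisons (columns: DOX in each of the 6 lines on the left, lines compared without DOX on the right), with a star for an adjusted p under 0.05 and the colour limited to 3. Rxra reaches 3.54 on the left side, and Crabp1 spans -2.44 to 2.30 on the right.

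Other genes of the pathway, outside the 33, were summarised in 3 lists, whose counts with DOX stand beside shares of all genes called of 16.3% in line 1, 26.8% in line 2, 16.4% in the labelled TRIM24-KO line and 36.6% in TRIM33-KO. Of 11 tested genes of retinoid handling in the pLV2 set (24 listed), DOX raised 1 and lowered 2 in line 1, raised 1 and lowered 1 in line 2, raised 2 in the labelled TRIM24-KO line, and raised 1 and lowered 2 in TRIM33-KO. Adh7, an alcohol dehydrogenase that can oxidise retinol, was among those raised in all 6 lines, from at most a few counts to 4.68 and 2.13 CPM in WT and 11.8 and 10.5 in the labelled TRIM24-KO line. Of 19 coregulators of the receptors, all tested, 2 rose and 4 fell in line 1, 2 and 9 in line 2, 2 and 3 in the labelled TRIM24-KO line, and 2 and 11 in TRIM33-KO. The coactivator gene Ncoa2 rose in each, by 0.98, 1.72, 1.44 and 2.40 on the log2 scale, and by 1.04 in the labelled DUXBL-KO line. Of 11 tested genes known to be induced by retinoic acid (20 listed), 2 rose and 3 fell in line 1, 4 and 4 in line 2, 5 and 2 in the labelled TRIM24-KO line, and 4 and 4 in TRIM33-KO. DOX thus moved genes of this list both ways in all 4 lines.

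Between lines, 9 of the 11 tested genes of the induced list (20 listed) differed in the line labelled TRIM24-KO. Without DOX, 7 were higher and 2 lower than the mean of both WT lines, where 43.4% of all genes were called, with a median log2 difference of 0.61 against -0.02 for all genes. Against line 1 alone 7 were higher and 2 lower (34% of all genes called), and against line 2 alone 6 and 2 (48.1%). The homeobox gene Gbx2 led it, at 104 and 96.8 CPM against 11.9 and 11.4 in line 1, 15.8 and 11.6 in line 2 and 17.4 and 15.5 in TRIM33-KO, a difference of 2.99 ± 0.10 (adjusted p = 6.84e-13). In the plain set without DOX, scaled apart, Gbx2 held 39.5 and 45 CPM in WT and 37.2 and 82.2 in the labelled DUXBL-KO line, between these levels. Ret, a receptor tyrosine kinase gene, was 1.55 higher, with 1.02 from line 1 and 2.07 from line 2. Of the handling genes, the fatty acid and retinoic acid binder Fabp5 was lower by -1.66 (adjusted p = 3.83e-07), at 3.96 and 4.82 CPM against 7.75 and 8.11 in line 1 and 25 and 23.5 in line 2. The WT lines themselves differed in Fabp5 by 1.61 (8.29e-07). The dehydrogenase gene Dhrs7 was 2.26-fold higher (1.38e-06), at 28.9 and 25.4 CPM against 11.3 to 12.8 in the WT lines. Of the coregulators 6 were higher and 6 lower, with Zfp423 (1.31), Pml (0.82) and Ncoa3 (0.60) the largest without overlap. Set against line 1 and line 2 in turn these were 1.15 and 1.48 for Zfp423, 0.53 and 1.12 for Pml, and 0.26 and 0.94 for Ncoa3, all called. Plain WT without DOX, scaled apart, held Pml at 192 and 173 CPM, a range that takes in the 188 of each labelled TRIM24-KO library. In TRIM33-KO without DOX the induced genes had 2 higher and 1 lower of 11, where 23.9% of all genes were called.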

How the data were processed

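Whole-number read counts per gene and per repeat subfamily were deposited by the authors, 1 table per library, per the file headers. Libraries came from total RNA with rRNA depletion and a directional kit, read as 75-base pairs, per the labels' protocols. The submitters' processing notes name bcl2fastq 2.20.0, cutadapt 1.18, STAR 2.7.6a and the build mm10, with no role or order. The counting tool and its use of strand and of multimapping reads are not given in the sources used here. Groups were taken from titles. In 8 pLV2 libraries the tag for treatment says otherwise than the title, and Dux counts followed the titles.

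Gene counts were scaled by TMM and filtered with filterByExpr by group, which left 18060 genes (plain set) and 18079 (pLV2 set). Each set had its own fit in edgeR 4.0.16 (R 4.3.3) by glmQLFit, with 1 mean per group, and the 2-sided glmQLFTest. Benjamini-Hochberg adjustment ran over all genes of a comparison, with a threshold of 0.05, in 18 comparisons. CPM uses effective library sizes, found within each set, so CPM and RPKM of the plain and pLV2 sets have no common TMM scaling. RPKM divides CPM by the summed exon length of the gene in kilobases. Repeat rows (7.58 to 23.0% of all counts) were left out of library sizes and tests. The gene row CT010467.1 took 30.4% of gene counts in labelled TRIM24-KO with DOX replicate 2 and 12.9% in TRIM33-KO with DOX replicate 2.

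The 33 members and all lists were chosen with earlier results of these data known. Every library's value is given for members past the threshold with an absolute log2 fold change of at least 1 and at least 50 counts in a library, with a few others named for context. Of each pathway list, the 3 largest changes without overlap could be named, and some of these are not reported here. Alternatives were RLE factors, no filter, a filter at a mean of 10 counts, DESeq2 1.42.0, a replicate block, only the compared groups, omission of CT010467.1, an added fold threshold, each WT line alone and omission of each library.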

Additional observations from a re-analysis of the deposited data

Results flagged for a closer look

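The DOX effect of a member differed between lines by a test of the difference itself in 3 cases. For Rarg it was larger by 0.54 in the line labelled TRIM24-KO than in the mean of both WT pLV2 lines. For Rxra it was larger by 1.09 in TRIM33-KO than in that mean, and by 0.85 in WT pLV2 line 2 than in line 1. The call for Rxra in TRIM33-KO passed in all 12 fits that omitted a library, with adjusted p from 2.70e-04 to 0.0272 (edgeR's quasi-likelihood test), but not against line 2 alone (0.5). The Rarg call was lost in 8 of 12 such fits (adjusted p up to 0.308) and against line 1 or line 2 alone (0.0839 and 0.0664). That for Rxra in line 2 was lost in 5 of 8 (up to 0.231) and with only the compared groups in the fit (0.0704).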

How the results depend on the processing

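Counts below are members called out of 20 unless stated, or of 31 without the filter on low counts. Percentages are of all genes under the same setting. Without that filter DOX in WT gave 2 (3.22%), labelled DUXBL-KO against WT 2 without DOX (1.7%) and 4 with it (2.63%), and the TRIM33-KO interaction 2 (0.971%). DESeq2 gave 1 for DOX in WT (4.21%), 4 for TRIM33-KO against WT without DOX (19%) and 2 for the TRIM33-KO interaction (1.08%). It also gave 7 for DOX in the labelled TRIM24-KO line (13.8%), 6 in TRIM33-KO (27.8%), 4 in line 2 (19.5%), 5 for TRIM33-KO against WT with DOX (20.9%), and 9 (31.6%) and 11 (32.2%) for line 2 against line 1 without and with DOX. With the added fold threshold, DOX gave 3 in line 1 (7%), 3 in line 2 (9.5%), 3 in the labelled TRIM24-KO line (7.47%) and 5 in TRIM33-KO (12.4%). Between lines it gave 8 (labelled TRIM24-KO, 12.6%), 3 (TRIM33-KO, 3.34%) and 5 (line 2 against line 1, 9.65%) without DOX, and 7 (12.4%), 3 (6.52%) and 5 (11.3%) with it. The labelled TRIM24-KO interaction fell to 0 with that threshold, with RLE factors, without CT010467.1, with only the compared groups and against either WT line alone. Only the compared groups gave 3 of 19 for DOX in line 2 (16.5%). Against line 2 alone, TRIM33-KO gave 0 without DOX, 3 with it and 0 for its interaction. Without DOX its differences then reversed for Rara (-0.01), Rxrg (-0.04) and Nrip1 (0.19), and the Rxra interaction of the labelled TRIM24-KO line reversed against line 1 alone (0.19). Beyond what these alternatives show by construction, the cause was not tested.

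Replicate numbers are shared across groups, but the labels do not say that a number marks a batch. With the replicate block, DOX gave 2 in WT and 2 in the labelled DUXBL-KO line, and that line against WT gave 3 without DOX and 1 with it. Over all genes the block moved those 2 comparisons from 7 to 440 calls and from 13 to 485. Counts in the pLV2 set were the same with and without the block. Deviations of same-numbered libraries correlated at 0.33 to 0.77 between groups of the plain set and -0.17 to 0.39 in the pLV2 set.

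Omitting each library in turn gave 0 to 1 for DOX in WT, 0 to 1 in the labelled DUXBL-KO line, 2 to 4 in line 1, 3 to 5 in line 2, 6 to 7 in the labelled TRIM24-KO line and 5 to 7 in TRIM33-KO. Labelled TRIM24-KO against WT gave 11 to 13 without DOX and 9 to 12 with it, TRIM33-KO 2 to 8 and 4 to 7, and line 2 against line 1 8 to 10 and 7 to 10. Interactions gave 0 to 1 (labelled TRIM24-KO), 1 to 2 (TRIM33-KO) and 0 to 1 (line 2). A group left with 1 library is assumed to vary like the others. Single values were followed for 100 pairs of a member and a comparison: those called in the fit described above, and all pairs of Rxra. In these the filter at a mean of 10 counts changed no call, and RLE factors changed 4. Over these pairs and all alternatives but the added fold threshold, 1131 values kept direction and side of the threshold. A further 164 lost the call, 7 gained it and 4 reversed. Only pairs of Rxra could gain a call, since all others were called at the start. Low counts limit Rarb, Cyp26a1 and most Hox genes.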
